A study of Mus musculus with 8 samples.

Results

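The genes described here anchor the basal layer of the epidermis: Krt5, Krt14 and Krt15, which encode the intermediate filament proteins of basal keratinocytes; Itga6, Itgb4, Col17a1 and Dst, which encode parts of the hemidesmosome; and Lama3 and Lamb3, which encode chains of laminin-332. They were chosen by name, with earlier results of these data known, as 9 genes of 36799 genes and other targets on the array. Their probes were found through RefSeq accessions, which gave 14 probes. RNA came from the back skin epidermis of newborn C57BL/6 mice (postnatal day 0), with 4 samples of each genotype, EED cKO and control. The EED cKO genotype is K14-Cre; EED flox/flox, in which the Krt14 promoter drives the Cre recombinase and Eed, a core subunit of Polycomb repressive complex 2 (PRC2), is deleted in basal keratinocytes, the cells that express these genes. The labels call the control only CTL, and its alleles are not given there. Each sample was hybridized on a 2-color Agilent expression array beside Universal Mouse Reference RNA, a commercial mix, with the sample in Cy3 on replicates 1 and 3 and in Cy5 on replicates 2 and 4 of both genotypes.

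Basal keratinocytes sit on the basement membrane and hold to it through hemidesmosomes. In this junction integrin α6β4, the product of Itga6 and Itgb4, and collagen XVII, the product of Col17a1, span the membrane. Inside the cell they are tied to the keratin 5 and keratin 14 filaments by plectin and by BP230, the epithelial product of Dst, while outside the cell integrin α6β4 binds laminin-332, which holds the chains encoded by Lama3 and Lamb3. Keratinocytes lower these genes as they leave the basal layer to differentiate, and inherited defects in most of them cause skin fragility.

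PRC2 is known for acting at CpG-rich promoters, and the CpG content of the promoters that were found is shown here. Whether PRC2 acts at any of them was not tested, nor was a link between CpG content and the differences by genotype. The RefSeq table of promoters (GRCm38.p6, 250 bases before to 50 bases after each gene start) held 7 promoters for 5 of the 9 genes. It held none for Itga6, Itgb4, Lama3 or Krt15. Of the genes that were lower, only Col17a1 and Lamb3 are therefore covered. In the sequences below, read 5′ to 3′ on the strand of the gene, each CpG (the letters CG) is in capitals.
Krt5 (chr15:101712856-101713155, minus strand): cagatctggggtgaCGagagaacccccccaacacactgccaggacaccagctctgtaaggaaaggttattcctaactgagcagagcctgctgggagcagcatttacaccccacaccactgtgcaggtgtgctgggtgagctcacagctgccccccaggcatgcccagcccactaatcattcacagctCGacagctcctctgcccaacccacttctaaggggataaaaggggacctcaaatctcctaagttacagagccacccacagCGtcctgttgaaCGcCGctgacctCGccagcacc
Col17a1 (chr19:47691993-47692292, minus strand): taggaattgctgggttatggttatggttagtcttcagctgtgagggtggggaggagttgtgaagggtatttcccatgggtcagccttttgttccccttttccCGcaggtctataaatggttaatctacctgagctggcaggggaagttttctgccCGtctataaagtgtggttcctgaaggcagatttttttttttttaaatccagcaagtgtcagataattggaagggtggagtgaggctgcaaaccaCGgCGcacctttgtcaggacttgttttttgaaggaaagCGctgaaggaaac
Lamb3, the upstream of its 2 listed starts (chr1:193301744-193302043, plus strand): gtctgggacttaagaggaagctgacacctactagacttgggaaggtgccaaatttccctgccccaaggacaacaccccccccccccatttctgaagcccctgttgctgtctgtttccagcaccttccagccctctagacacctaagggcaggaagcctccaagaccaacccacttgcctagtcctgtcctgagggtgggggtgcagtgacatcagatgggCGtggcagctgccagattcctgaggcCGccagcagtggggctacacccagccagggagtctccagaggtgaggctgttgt
Dst, the upstream of its 2 listed starts (chr1:34011345-34011644, plus strand): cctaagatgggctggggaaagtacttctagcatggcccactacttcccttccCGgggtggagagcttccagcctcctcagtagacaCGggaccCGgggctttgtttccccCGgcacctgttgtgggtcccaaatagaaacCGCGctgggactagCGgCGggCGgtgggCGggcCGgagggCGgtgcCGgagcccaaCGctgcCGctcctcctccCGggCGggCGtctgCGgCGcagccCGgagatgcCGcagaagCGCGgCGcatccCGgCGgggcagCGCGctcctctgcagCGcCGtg

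The Krt5 promoter held 6 CpGs, that of Col17a1 held 5 and the Lamb3 promoter shown held 2, while the promoter listed for Krt14 and the other Lamb3 promoter held 5 each, against a median of 7 over 32851 promoters of the same length, 94.6% of which hold at least 1. The Dst promoter shown stood apart with 31 CpGs, a count reached by 10.6% of all promoters. The other start listed for Dst had 6 CpGs. Which of these starts gives the transcript read by the brightest Dst probe was not tested. Of the 7 promoters, 6 were below the median, as were 47.9% of all promoters.

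Values are given as the log2 ratio of sample over reference on each array, after background correction and loess normalization. Genotypes were compared with limma over 23135 genes and other targets that passed a filter on dim probes, with a term for the dye, and p-values were adjusted by the Benjamini-Hochberg method over all of them. Genes with an adjusted p below 0.05 are described as called. All 9 genes passed the filter, and the probe with the highest signal stood for each. All were well above background on all 8 arrays, and no spot was saturated. As a check of the labels, Eed itself was 2.75-fold lower in EED cKO, with the 4 EED cKO arrays between -2.04 and -1.66 and the control arrays between -0.46 and -0.18. All 8 arrays lay on 1 slide, with each genotype in a row of its own, and slide row and genotype cannot be told apart. Y-linked RNA was high on control replicates 2 and 3 (mean log2 ratio of 4 genes 1.19 and 1.02) and low on the other arrays (-1.51 to -1.31).

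The 3 basal keratins were not called changed, whereas the integrin and laminin genes were called lower in EED cKO epidermis. Col17a1 was called lower too, but near the limit (limma adjusted p = 0.0486). It was called in only 8 of 24 other ways of processing or fitting the arrays. Of the 9 genes, 5 were called lower (55.6%, against 9.95% of all features tested) and 0 were called higher by limma, with none higher at an unadjusted p below 0.05 either (11.8% of all features were called higher), while 21.7% of all features were called in either direction. The 5 were Itga6, Itgb4, Lama3, Lamb3 and Col17a1, and they were between 1.26-fold and 1.68-fold lower. None of the 9 reached the 2-fold limit used by the study, which 1.2% of all features reached with an adjusted p below 0.05. The median log2 fold change of the 9 genes was -0.33, against 0.019 over all features. Since RNA of the whole epidermis was measured, fewer basal cells and less RNA per basal cell cannot be told apart.

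**Figure D1:**
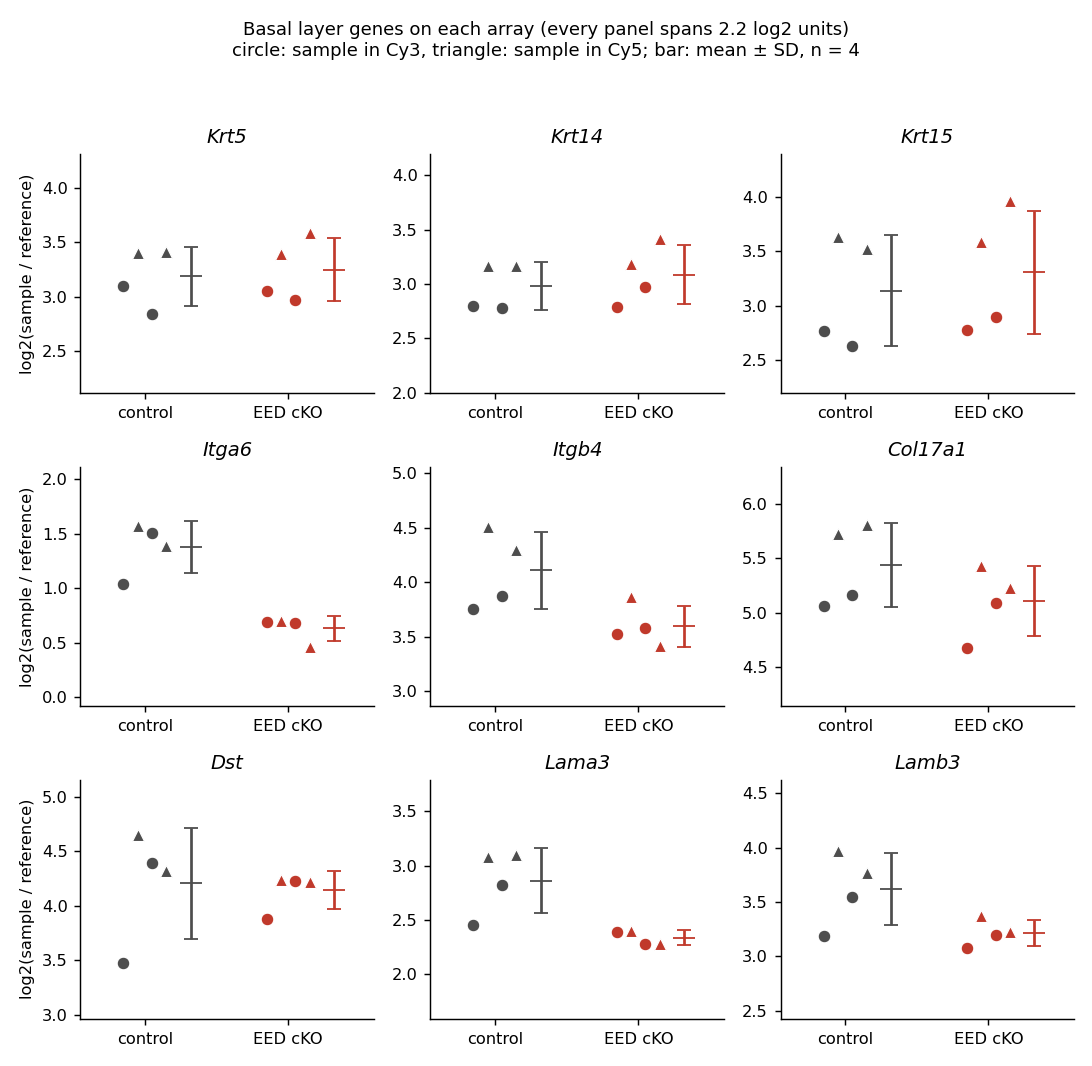
Log2 ratio of sample over reference (vertical axis) of the 9 basal layer genes on each of 4 control and 4 EED cKO arrays, with circles for samples in Cy3 and triangles for samples in Cy5, and the mean ± SD beside the points. The EED cKO arrays lie below all control arrays for Itga6 (at most 0.70 against at least 1.04) and, narrowly, for Lama3, while the groups overlap for the other 7 genes.

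Itga6, whose product pairs with integrin β4 in the hemidesmosome, had the largest difference of the 9 genes. Its log2 ratio was 0.69, 0.70, 0.68 and 0.46 on EED cKO replicates 1 to 4 and 1.04, 1.57, 1.51 and 1.39 on control replicates 1 to 4. All EED cKO arrays were below all control arrays. By limma the difference was -0.74 on the log2 scale (SE 0.12, adjusted p = 0.00318), or 1.68-fold lower in EED cKO, and an exact permutation test over the 8 arrays gave p = 0.0286 (two-sided), the smallest that 4 against 4 arrays allow. The difference was -0.59 between the arrays with the sample in Cy3 and -0.90 between those with it in Cy5. Itga6 was at 2.60 times the reference in control and 1.55 times in EED cKO, and its reference signal differed little between the genotypes (log2 difference -0.01, limma adjusted p = 0.981). It was called lower in all 24 alternatives that were run, with log2 fold changes from -0.87 to -0.60.

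Itgb4 encodes the β4 chain, which carries the long cytoplasmic tail that binds plectin. On the EED cKO arrays its log2 ratio was 3.52, 3.86, 3.58 and 3.41, and on the control arrays it was 3.75, 4.51, 3.87 and 4.30. The groups overlapped, since EED cKO replicate 2 was above control replicate 1, but each EED cKO array was below the control array of the same number and dye. Itgb4 was 1.43-fold lower (log2 fold change -0.51, SE 0.13, limma adjusted p = 0.0218), and the exact permutation test, which ignores the dye, gave p = 0.0571. Within the dyes the differences were -0.26 for Cy3 and -0.77 for Cy5. The call was lost without control replicate 2 (log2 fold change -0.42, limma adjusted p = 0.0720). The reference signal of Itgb4 differed by 0.02 on the log2 scale between the genotypes (limma adjusted p = 0.966).

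Col17a1 encodes the transmembrane collagen XVII and was at 43.3 times the reference in control epidermis and at 34.4 times in EED cKO. Its log2 ratio was 4.67, 5.43, 5.09 and 5.23 in EED cKO and 5.06, 5.72, 5.16 and 5.81 in control, with groups that overlapped. It was 1.26-fold lower (log2 fold change -0.33, SE 0.10, limma adjusted p = 0.0486), and the differences were -0.23 within Cy3 and -0.43 within Cy5. The exact permutation test gave p = 0.257. The reference spot of Col17a1 was dim and moved with genotype too: after background subtraction the reference spot gave 55.0 to 82.0 on the EED cKO arrays and 99.0 to 176 on the control arrays, a log2 difference of -0.78 after normalization (limma adjusted p = 0.00541), although the reference RNA was the same. In the sample channel alone, Col17a1 was lower by more, with a log2 fold change of -1.11 (limma adjusted p = 0.00297), but with the log ratio of the Feature Extraction software it was 0.23 (limma adjusted p = 0.156). The call was also lost in 6 of 8 fits that each left an array out, namely without EED cKO replicate 1, 2 or 4 or control replicate 2, 3 or 4 (limma adjusted p up to 0.144).

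Dst, the remaining hemidesmosome gene, was not called. Its brightest probe, designed on NM_010081, had log2 ratios of 3.88, 4.24, 4.23 and 4.22 in EED cKO and 3.47, 4.65, 4.39 and 4.32 in control. Control replicate 1 was the lowest of all 8 arrays and the other control arrays were the highest. The difference of the means was -0.07 (SE 0.19, limma adjusted p = 0.840), with a 95% interval of -0.49 to 0.35, which holds the estimates of Lamb3 and Col17a1. Without control replicate 1 it was -0.29 (limma adjusted p = 0.0996). The 3 other Dst probes were designed on other transcripts and differed from it in level: they read below the reference, from -2.05 to -0.74 for NM_134448, from -1.50 to -0.97 for NM_133833 and from -0.73 to -0.40 for NM_001276764. Dst also encodes long isoforms of neurons and muscle. The log2 fold changes of these probes were -0.37, 0.15 and -0.12, and none was called (limma adjusted p = 0.0901, 0.359 and 0.343 over all probes).

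Both laminin-332 genes described here were lower. Lama3, which encodes the α3 chain that integrins bind, had log2 ratios of 2.39, 2.40, 2.28 and 2.28 in EED cKO and 2.45, 3.08, 2.82 and 3.10 in control. The EED cKO arrays did not overlap the control arrays, though control replicate 1 was only just above them. Lama3 was 1.44-fold lower (log2 fold change -0.52, SE 0.12, limma adjusted p = 0.0126; exact permutation test, two-sided, p = 0.0286). A second Lama3 probe read 4.69, 4.65, 4.80 and 4.49 in EED cKO and 4.89, 5.47, 5.43 and 5.50 in control, again without overlap. For this probe the genotypes differed by -0.67 on the log2 scale (SE 0.14, limma adjusted p = 0.00944 over all probes), so that both probes of the gene moved the same way. Itga6 and Lama3 were thus 2 of the 9 genes in which all EED cKO arrays were below all control arrays, a pattern found in 7.52% of all features tested.

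Lamb3, which encodes the β3 chain, was at 3.08, 3.37, 3.20 and 3.22 in EED cKO and at 3.19, 3.97, 3.55 and 3.77 in control. As with Itgb4, the groups overlapped through control replicate 1, and every EED cKO array was below the control array of its own number. Lamb3 was 1.33-fold lower (log2 fold change -0.41, SE 0.11, limma adjusted p = 0.0278), with -0.24 within Cy3 and -0.58 within Cy5. The exact permutation test gave p = 0.114. The call held without EED cKO replicate 3 or control replicate 1 (limma adjusted p = 0.0355 and 0.00617) and was lost without any other array (up to 0.0908). In all 5 genes called lower, the difference was larger on the arrays with the sample in Cy5 than on those with it in Cy3, a contrast between the dyes that was not tested.

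**Figure D2:**
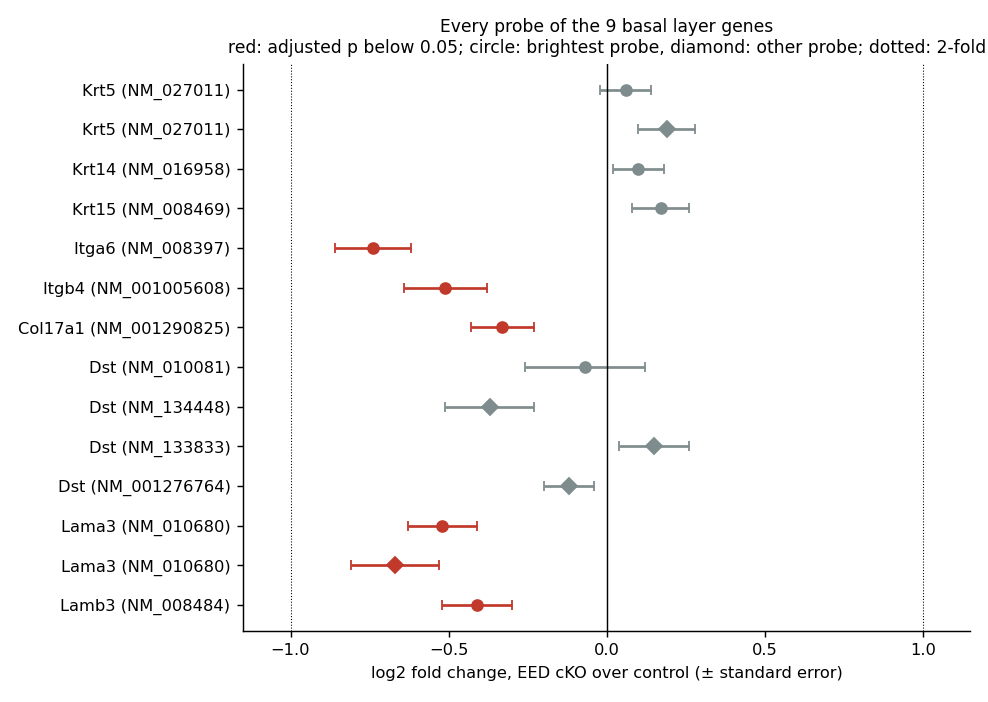
Log2 fold change of EED cKO over control with its standard error (horizontal axis) for each of the 14 probes of the 9 genes, with the RefSeq transcript that the probe was designed on. Both Lama3 probes (-0.52 and -0.67) and the single probes of Itga6, Itgb4, Col17a1 and Lamb3 lie below 0 and are called (red), whereas no keratin or Dst probe is called and none reaches the 2-fold lines.

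None of the basal keratins was called. Krt5 had log2 ratios of 3.05, 3.39, 2.97 and 3.58 in EED cKO and 3.10, 3.40, 2.84 and 3.41 in control. Its values fell into 2 levels by dye, not by genotype. The genotypes differed by 0.06 (SE 0.08, limma adjusted p = 0.628), with a 95% interval of -0.12 to 0.24, and a second Krt5 probe gave 0.19 (SE 0.09, limma adjusted p = 0.147 over all probes). Krt14, the partner of Krt5 in the basal filament and the gene whose promoter drives the Cre, was at 2.79, 3.18, 2.97 and 3.41 in EED cKO and at 2.80, 3.17, 2.78 and 3.17 in control. The difference for Krt14 was 0.10 on the log2 scale (SE 0.08, limma adjusted p = 0.363; 95% interval -0.07 to 0.28). Krt15, a keratin of basal cells that also marks hair follicle stem cells in adult skin, was at 2.78, 3.59, 2.90 and 3.96 in EED cKO and at 2.77, 3.63, 2.63 and 3.52 in control. It differed by 0.17 on the log2 scale (SE 0.09, limma adjusted p = 0.214; 95% interval -0.03 to 0.38). On the scale of the ratio to the reference, the lower end of the interval of each keratin lay above the estimates of all 5 genes called lower.

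For Krt14 and Krt15 this result held only for the ratio. In the sample channel alone, both were lower in EED cKO, by log2 fold changes of -0.24 for Krt14 (limma adjusted p = 0.0339) and -0.54 for Krt15 (limma adjusted p = 0.0111), while Krt5 was at -0.09 (limma adjusted p = 0.420). The signal of the common reference moved the same way on the same arrays, by -0.34 for Krt14 (limma adjusted p = 0.0612) and -0.71 for Krt15 (limma adjusted p = 0.0405). These are among the brightest spots, with 32825 to 66337 units of net sample signal for Krt14, 33452 to 79506 for Krt15 and 102632 to 154938 for Krt5. The second Krt5 probe was dimmer and was lower in EED cKO in both channels. Its mean log2 signal was 12.79 in EED cKO and 13.14 in control for the sample, and 8.58 and 9.12 for the reference. The part of the reference shift in these values was not tested. For Itga6, Itgb4, Lama3 and Lamb3 the sample channel alone gave calls in the same direction, with log2 fold changes of -0.75, -0.50, -0.60 and -0.60.

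**Figure D3:**
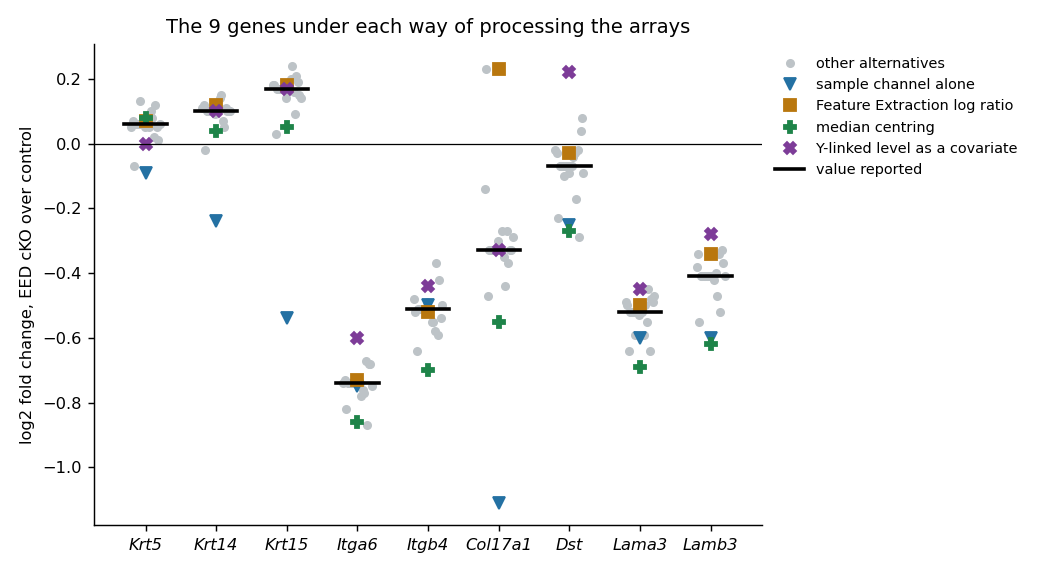
Log2 fold change of EED cKO over control (vertical axis) of each of the 9 genes as reported (black bars) and in 24 alternative ways of processing or fitting the arrays (points, 4 of them marked by symbol). Itga6, Itgb4, Lama3 and Lamb3 stay below 0 throughout, all 3 keratins are below 0 in the sample channel alone (Krt5 and Krt14 also with quantile normalization), and Col17a1 ranges from -1.11 to 0.23.

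Since Y-linked RNA was high only among the control arrays, it was also fitted beside the genotype. With the Y-linked level as a covariate, Itga6 was still called (log2 fold change -0.60, limma adjusted p = 0.0146), while Lama3 (-0.45, limma adjusted p = 0.0652), Itgb4 (-0.44, limma adjusted p = 0.102), Lamb3 (-0.28, limma adjusted p = 0.145) and Col17a1 (-0.33, limma adjusted p = 0.131) kept their sign but were not called.

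Other genes of the basal layer and of the basement membrane zone were taken from a list of 32, of which 31 were tested. This list too was chosen with earlier results of these data known. Of these 23 had a log2 fold change below 0: 9 were called lower (29.0%, against 9.95% of all features) and 1 was called higher (against 11.8% of all features), with a median log2 fold change of -0.21, while the remaining 21 were not called. Among partners of the 9 genes, Plec, which encodes the plectin that links integrin β4 to keratin, had a log2 fold change of -0.49 (limma adjusted p = 0.0155), and its EED cKO arrays were all below the control arrays. Cd151, a tetraspanin that associates with laminin-binding integrins, was the 1 gene called higher, at 0.23 (limma adjusted p = 0.0444), but no gene of the list was called higher when any array other than EED cKO replicate 2 was left out.

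Further genes called lower encode collagens, a further laminin chain and adhesion proteins. Col4a5 and Col4a6, which encode chains of basement membrane collagen IV, were at -0.51 and -0.80 (limma adjusted p = 0.00735 and 0.00689), and for both the EED cKO arrays were all below the control arrays. Cdh3, the P-cadherin of basal and hair matrix cells, had the largest log2 fold change of the list, -0.90 (SE 0.16, limma adjusted p = 0.00528). Fras1, a basement membrane protein of the embryonic skin, was at -0.58 (limma adjusted p = 0.0203). Lamb2 was at -0.48 (limma adjusted p = 0.0289) and Tln1, which encodes talin 1 of integrin-based focal adhesions, at -0.46 (limma adjusted p = 0.00919). Col7a1, which encodes the collagen of the anchoring fibrils below the hemidesmosome, was at -0.43 (limma adjusted p = 0.0330). Col7a1 and Cd151 were named after their values were seen. Trp63, which encodes the transcription factor that maintains basal keratinocytes, was at 0.04 (limma adjusted p = 0.758). Itgb1, the β1 integrin chain, was not called either, at -0.19 (limma adjusted p = 0.0785), though its EED cKO arrays were all below the control arrays. The α chain genes Itga3, Itga2, Itga5 and Itgav were at -0.21, -0.12, 0.13 and -0.23, and none was called. Itga2 was dim, well above background on 3 control arrays and 0 EED cKO arrays, so its value is less sure than the others.

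**Figure D4:**
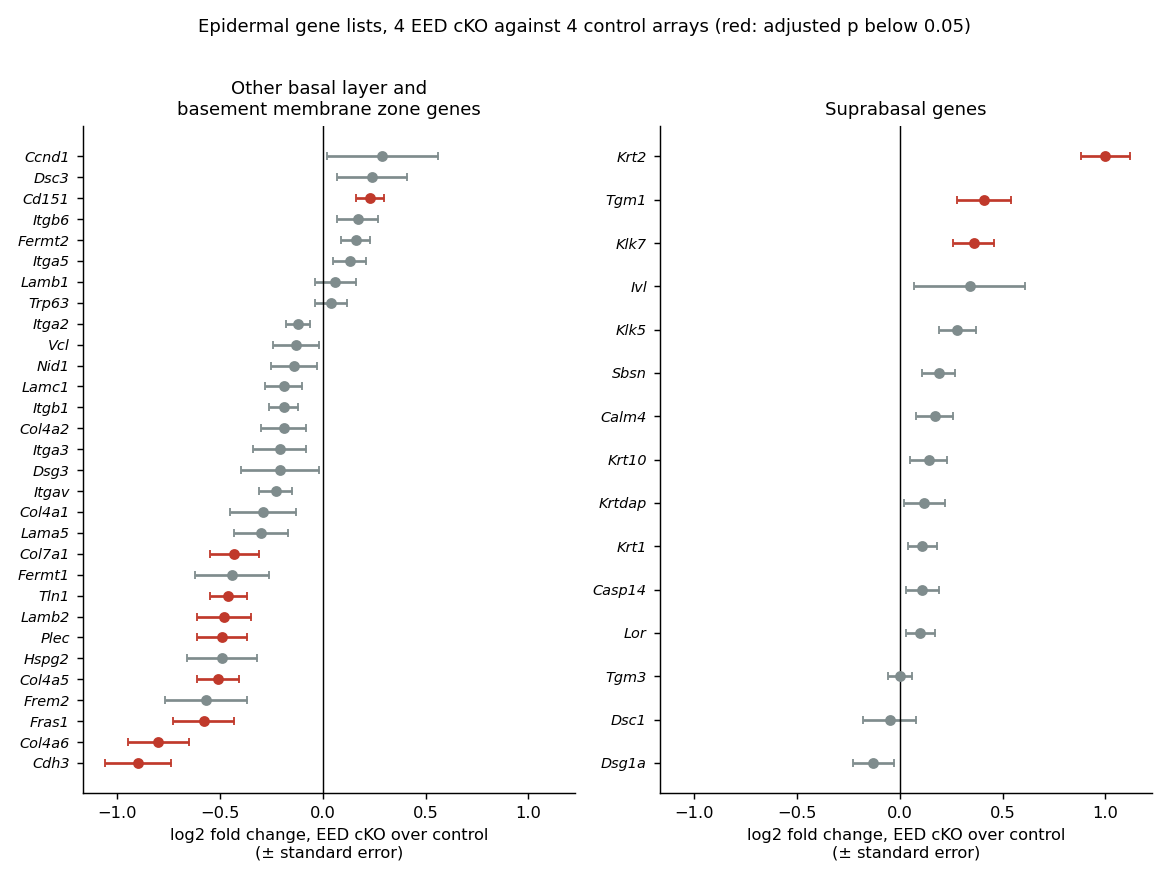
Log2 fold change of EED cKO over control with its standard error (horizontal axes) for 30 of the 31 tested genes of the other basal layer and basement membrane zone list and for the 15 tested suprabasal genes. On the left, 8 of the genes shown are called lower and 1 higher (red); on the right, Krt2, Tgm1 and Klk7 are called higher and none lower.

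In the suprabasal layers, 15 genes of a list of 16 were tested and 3 were called, all of them higher in the EED cKO epidermis. This is 20.0% of the list, near the 21.7% of all features called in either direction, where 11.8% were called higher. The median of the list was 0.14 on the log2 scale. Krt2, a keratin of the upper spinous and granular layers, rose by 1.00 on the log2 scale (SE 0.12, limma adjusted p = 0.00102), Tgm1, a transglutaminase that crosslinks the cornified envelope, by 0.41 (limma adjusted p = 0.0456), and Klk7, a protease of desquamation, by 0.36 (limma adjusted p = 0.0247). Krt1 and Krt10, the main suprabasal keratins, were at 0.11 and 0.14 and were not called. The keratin pairs of the basal layer (Krt5 and Krt14) and of the suprabasal layers (Krt1 and Krt10) thus had log2 fold changes between 0.06 and 0.14.

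Markers of other cell types were measured on the same arrays. The 4 Merkel cell markers were all called higher in EED cKO (log2 fold changes from 0.47 to 1.12), with a summed signal of 1771 to 2179 on the EED cKO arrays and 1106 to 1470 on the control arrays. Of these markers, Atoh1 was well above background on 4 EED cKO arrays but only 2 control arrays. It thus passed the filter only through the genotype in which it was higher. Of 5 endothelial markers, Kdr and Pecam1 were called higher (0.62 and 0.89), Cdh5 and Tie1 were well above background on no array and Emcn on 1, with a summed signal of 4578 to 6042 in EED cKO and 2718 to 4158 in control. Of 4 immune markers, Cd3e and Cd74 were higher (0.54 and 0.46), and the sums overlapped, from 2336 to 3310 and from 1862 to 3100. Of 7 fibroblast markers, only Lum was called, higher at 0.50, and 3 had a log2 fold change below 0. Their sums overlapped, from 27518 to 28967 in EED cKO and from 26860 to 37706 in control. Among the markers of Schwann cells, 0 of the 2 tested were called, Cdh19 was well above background on no array, and the sums overlapped (1246 to 2316 and 1628 to 1941). For skeletal muscle 0 of 2 tested markers and for melanocytes 0 of 4 were called, with sums that overlapped between the genotypes (394 to 452 against 386 to 472 for muscle, and 22591 to 28196 against 19455 to 28749 for melanocytes). The part of these cells in the values of the basal layer genes was not tested.

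The 5 genes with a symbol whose profile over the 8 arrays was nearest to the mean profile of the 9 genes were D11Wsu47e, Ascc3, Pfas, Myo1c and Tfap2a, the last of which encodes the epidermal transcription factor AP-2α. Their mean absolute difference from that profile was 0.04 to 0.05 on the log2 scale, over 8 arrays and 14930 genes compared, and their log2 fold changes ran from -0.30 to -0.24. Among the 9 genes themselves, Lamb3 was nearest to the mean profile (0.08) and Krt15 farthest from it (0.27).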

How the data were processed

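The authors scanned 8 Agilent 8x60K arrays and deposited the Feature Extraction 12.0.1.1 output of each, with raw median intensities of spot and local background in both channels and a log10 ratio of the dyes (Cy5 to Cy3) that the software had corrected for background and dye. A series table of log2 ratios was deposited by the authors too and holds nearly the same ratios, all turned to sample over reference.

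Here the median intensities were corrected with normexp (offset 50) and loess was applied within arrays, in R 4.3.3 with limma 3.58.1. Control spots had no weight in the loess. After it, control spots and flagged outliers were dropped. Spots of a probe were averaged. Normexp with an offset draws ratios of dim spots toward 0. The filter kept targets whose brightest probe had a sample signal flagged well above background on 3 or more arrays of either genotype. It left 19 missing values among 23135 targets, none in a member. RefSeq accessions (GRCm38.p6) named 28026 of 29796 such probes. The array was designed on another build, so that no probe coordinates are given. The sample channel was well above background for 51.5% to 65.5% of spots per array, and precision is limited by having 4 arrays per genotype. The fit was tested on simulated data.

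The 9 genes and all lists were chosen with earlier results of these data known. The text names all 9, Eed, called genes of the other lists (at most 8 each by p), and the 5 genes nearest in profile, together with some named after their values were seen. Samples with the same number deviated together (r from 0.33 to 0.68), but after removal of the dye r ran from -0.14 to 0.23. Samples with the same number share the dye, which the fit holds. They also share the slide column, which the fit does not hold and which cannot be told apart from the number. Suprabasal Flg had no matched probe. A tested gene of the basement membrane zone list is counted but not reported here.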

Additional observations from a re-analysis of the deposited data

Results flagged for a closer look

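Among the 18 sets of 4 arrays formed by the 9 genes and both genotypes, 2 held an array far from the other 3, where chance gives about 1 in 20. Itga6 was at 0.46 on EED cKO replicate 4 and at 0.68 to 0.70 on the other EED cKO arrays, and without that array its log2 fold change was -0.67 (limma adjusted p = 0.0116). Dst was at 3.88 on EED cKO replicate 1 and at 4.22 to 4.24 on the others, and without that array its log2 fold change was -0.04 (limma adjusted p = 0.928).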

How the results depend on the processing

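Of the 9 genes, 5 were called lower. That count was 7 in the sample channel alone, with Krt14 and Krt15 added, 3 with the Feature Extraction log ratio, the deposited table or median centring, 2 without the dye term, 1 with the methods' t-test after Benjamini-Hochberg adjustment and 1 with the Y-linked level as a covariate, a fit chosen after seeing the data. With an array left out it was 2 to 5, the 2 without control replicate 2. Itga6 was called in 24 of 24 alternatives, Lama3 in 22, Itgb4 in 19, Lamb3 in 12 and Col17a1 in 8. With the replicate number as a block, 5 were called lower, and 5982 features in all.

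Some directions turned. Col17a1 was at 0.23 with the Feature Extraction log ratio and with the deposited table. With quantile normalization of the log ratios Krt5 was at -0.07 and Krt14 at -0.02, and in the sample channel alone Krt5 was at -0.09, Krt14 at -0.24 and Krt15 at -0.54. Dst was at 0.22 with the Y-linked covariate and from -0.29 to 0.08 with an array left out. The count at 2-fold, 0, became 1 (Col17a1) in the sample channel alone. The causes were not tested.

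The 9 other basal layer and basement membrane zone genes called lower were 5 with median centring, 2 without the dye term, 0 with the t-test and 5 to 14 with an array left out. The 1 called higher became 0 with the Feature Extraction log ratio, the deposited table, median centring, no background correction, no dye term, array weights, the t-test or the Y-linked covariate, 2 in the sample channel alone, and 0 to 1 with an array left out. The 3 suprabasal genes called higher were 1 with median centring, no dye term or the t-test and 1 to 3 with an array left out, and 1 was called lower with quantile normalization or the sample channel alone. Over all features, 5029 were called, against 2555 with median centring, 2357 without the dye term, 907 with the t-test, 2802 with the Y-linked covariate and 2725 to 5049 with an array left out; at 2-fold, 278 against 698 with the Feature Extraction log ratio, 697 with the deposited table and 174 with the t-test.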
